A study of Mus musculus with 9 samples.

Results

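The genes described here are 10 of the 55274 gene identifiers in the expression tables, taken by symbol as genes of macrophage lipid handling and tissue repair: Spp1, Arg1, Apoe, Apoc1, Apoc2, Trem2, Lpl, Cd36, Gpnmb and Adgre1. The group was chosen by its values in these data. Spp1, Arg1 and Apoc2 were selected on their higher level in NUP98-NSD1+NRASG12D cells, so their differences in the comparisons of those cells are given as a description without a test. RNA was sequenced from 9 cultures of mouse bone marrow cells, 3 each transduced with NRASG12D, with NUP98-NSD1 or with both. NRASG12D is a constitutively active form of a RAS protein, and NUP98-NSD1 is a fusion of the nucleoporin NUP98 with the methyltransferase NSD1, found in a subset of acute myeloid leukemia (AML). All 9 cultures came from female C57BL/6J mice given 5-fluorouracil at 150 mg/kg, with marrow harvested on day 4 and stimulated for 48 h with human interleukin-6, murine interleukin-3 and murine stem cell factor. NUP98-NSD1 was carried by the MSCV-IRES-GFP retroviral vector and NRASG12D by MSCV-IRES-BFP, both driven by the strong viral promoter of MSCV, and the cells were sorted by fluorochrome and expanded in the same cytokines. The study describes the NRASG12D cultures as mostly IgE receptor positive mast cells and the double-transduced cultures as richer in CD11b+/Gr1- cells, so each comparison between groups also compares cell types. No culture with an empty vector was analysed here, and the labels do not say whether replicates came from separate mice, so p-values measure the spread between these libraries only.

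As background, macrophages take up lipoproteins and dying cells, break down their lipid and pass cholesterol on to lipoprotein particles. Apoe is the main apolipoprotein that they secrete, Apoc1 and Apoc2 ride on triglyceride-rich particles, and Apoc2 is the activator of lipoprotein lipase, the product of Lpl. Cd36 takes up fatty acids and oxidized lipoproteins. Trem2 is a lipid-sensing receptor that signals through the adaptor Tyrobp. Lipid-loaded macrophages in fat, atherosclerotic plaque and damaged tissue are known for high Trem2, Gpnmb, a lysosomal and surface glycoprotein, and Spp1, which encodes osteopontin, a secreted ligand of integrins and CD44. Arg1 encodes arginase, which turns arginine into ornithine, and Adgre1 encodes F4/80, a surface antigen long used to mark mouse macrophages.

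Promoter sequence was held for 6 of the 10 genes in RefSeq on build GRCm38.p6. The windows of Spp1, Apoc2, Trem2 and Gpnmb are shown because these genes had wide differences between the groups, each with 250 bases before the start and 15 after it, 5′ to 3′ on the strand of the gene. Capitals mark the searched motifs found in them. The positions are chr5:104434861-104435125 (+) for Spp1, chr7:19677927-19678191 (-) for Apoc2, chr17:48346151-48346415 (+) for Trem2 and chr6:49036268-49036532 (+) for Gpnmb.
Spp1: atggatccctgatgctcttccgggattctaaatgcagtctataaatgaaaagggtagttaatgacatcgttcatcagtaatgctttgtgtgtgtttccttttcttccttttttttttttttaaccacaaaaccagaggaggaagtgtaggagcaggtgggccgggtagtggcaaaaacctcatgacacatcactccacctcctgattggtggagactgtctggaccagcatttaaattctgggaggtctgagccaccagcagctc
Apoc2: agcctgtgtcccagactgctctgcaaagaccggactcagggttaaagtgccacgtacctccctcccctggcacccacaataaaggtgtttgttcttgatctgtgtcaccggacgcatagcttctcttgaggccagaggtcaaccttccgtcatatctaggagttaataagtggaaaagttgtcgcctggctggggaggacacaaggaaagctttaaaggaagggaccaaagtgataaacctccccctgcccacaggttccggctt
Trem2: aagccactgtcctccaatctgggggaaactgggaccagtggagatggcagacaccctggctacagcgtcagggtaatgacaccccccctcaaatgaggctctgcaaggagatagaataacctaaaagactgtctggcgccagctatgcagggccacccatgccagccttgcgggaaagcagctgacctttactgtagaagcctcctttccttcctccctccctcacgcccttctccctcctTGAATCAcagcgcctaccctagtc
Gpnmb: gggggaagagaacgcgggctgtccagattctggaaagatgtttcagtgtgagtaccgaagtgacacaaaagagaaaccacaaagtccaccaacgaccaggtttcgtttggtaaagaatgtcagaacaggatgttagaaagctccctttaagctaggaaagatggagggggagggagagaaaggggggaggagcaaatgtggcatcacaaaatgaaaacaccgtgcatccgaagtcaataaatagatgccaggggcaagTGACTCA
The motifs were searched on both strands over the full windows of 300 bases, 250 before and 50 after the start. The AP-1 motif TGANTCA began 9 bases before the start of Trem2 and 8 bases after that of Gpnmb, and it occurs in 7.81% of 32851 promoters of that length. Starts here are those of RefSeq. For Spp1 and Gpnmb they lie before the start of the gene coordinates given below. The whole printed window of Gpnmb, with its motif, lies before that coordinate. The C/EBP motif TTGCNNAA, held by 10.8% of promoters, began 22 bases after the Trem2 start, beyond the bases printed, and 156 bases before a second start listed for Spp1. Neither the M-box motifs TCATGTG and TCACGTG, held by 7.4%, nor the PU.1 motif AGAGGAAG, held by 4.55%, was found in the 9 windows of the 6 genes, which were those of Cd36 (1), Apoe (3), Spp1 (2), Apoc2 (1), Trem2 (1) and Gpnmb (1). No found motif overlapped another. A match is a description of the letters and not of binding.

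Expression is given as FPKM, a fragment number divided by transcript length in kilobases and by library depth, and 3 fragments corresponded to 0.0562 to 0.0889 FPKM of Spp1, depending on the library. Nras was listed at 354, 479 and 348 FPKM in NRASG12D, 50.3, 47.7 and 51.2 in NUP98-NSD1 and 245, 262 and 701 in NUP98-NSD1+NRASG12D cells, higher in both groups labelled with NRASG12D than in the third. The summed FPKM of 12 macrophage markers was 25.6 to 113 with NRASG12D, 1231 to 1710 with NUP98-NSD1 and 3725 to 10945 in the double-transduced libraries. Most of that sum in the groups with the fusion was Lyz2, at 1472, 1042 and 1292 and at 3370, 8813 and 9554 FPKM. The mean log2(FPKM + 1) of the 12 was 4.82, 7.22 and 5.87 in double-transduced replicates 1 to 3. Within the NRASG12D group, all 12 were highest in replicate 2. The 10 mast cell markers summed to 30017 to 32656, 26832 to 31856 and 739 to 4335 FPKM in the same order. Without the mast cell protease gene Cpa3, a comparison chosen after seeing the data, the other 9 summed to 30017 to 32656, 13672 to 17477 and 459 to 2514 FPKM. The 10 neutrophil markers summed to 3 to 15.8, 1290 to 4718 and 8231 to 18315 FPKM. The macrophage sum was thus lowest in the NRASG12D group, and mast cell markers stayed abundant beside macrophage markers in NUP98-NSD1 cultures. Of the other marker lists, the 5 megakaryocyte genes summed to 479 to 563, 242 to 301 and 81.1 to 1242 FPKM. Most of the NRASG12D and NUP98-NSD1 sums was Itga2b, at 479, 558 and 493 and at 209, 205 and 276 FPKM. Itga2b was only 11.6, 50.1 and 4.43 FPKM in double-transduced libraries. The platelet chemokine gene Pf4 of that list was listed at 0.187, 3.96 and 0.55 FPKM in NRASG12D, 29.8, 32.7 and 22.2 in NUP98-NSD1 and 62.8, 1157 and 111 in double-transduced libraries, highest in replicate 2 of each group. The 6 erythroid genes summed to 4.38 to 9.37, 39.2 to 98 and 5.68 to 59.7 FPKM. The 6 genes of stroma, endothelium and fat summed to 104 to 107, 70.9 to 79.3 and 38.5 to 72.4. Most of these last sums was Pecam1, at 103, 105 and 106, then 67.2, 71.5 and 78.2, then 35.6, 37.6 and 71.7 FPKM. Col1a1, Col3a1, Cdh5 and Adipoq stayed under 1 FPKM in every library. The 6 dendritic cell genes summed to at most 11.9 FPKM and the 6 T cell genes to at most 5.56, and the 5 B cell genes were all under 1 FPKM in every library. Cpa3 was listed at 0 in the 3 NRASG12D libraries against 12564 to 14378 FPKM in NUP98-NSD1 cells, so an exact 0 in these tables can be a failed estimate.

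**Figure D1:**
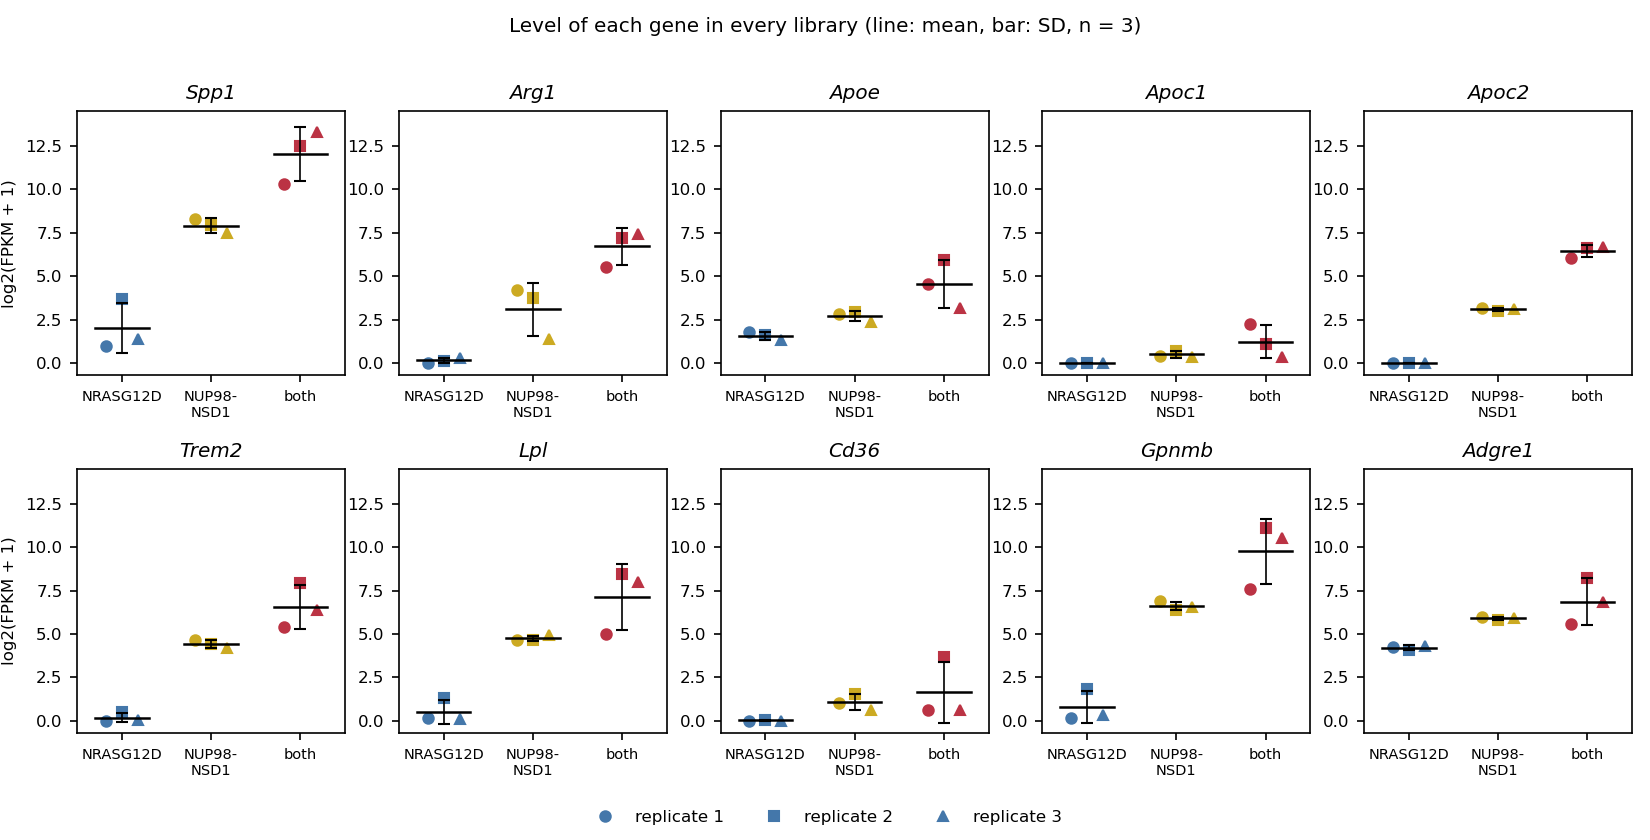
Level of each of the 10 genes in the 9 libraries as log2(FPKM + 1), with 1 symbol per replicate, a line at the mean and a bar for the SD (n = 3). "Both" is NUP98-NSD1+NRASG12D. All 10 genes were listed lowest in the NRASG12D libraries, with Apoc1 and Apoc2 at 0 there, which can be a failed estimate. The double-transduced libraries spread widely, with Spp1 between 1259 and 10243 FPKM.

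Spp1 (chr5:104435118-104441050, + strand) was the most abundant of the genes in every NUP98-NSD1 and double-transduced library. It was listed at 0.945, 11.6 and 1.65 FPKM in NRASG12D, 316, 243 and 177 in NUP98-NSD1 and 1259, 5746 and 10243 in NUP98-NSD1+NRASG12D libraries. No groups overlapped, and by FPKM Spp1 ranked 46, 3 and 2 among all genes of the double-transduced libraries, against 298, 429 and 541 in NUP98-NSD1 alone. Mean log2(FPKM + 1) was higher in NUP98-NSD1 than in NRASG12D cells by 5.90 (SE 0.65, limma adjusted p = 0.001). Described without a test, it lay 4.13 higher again in the double-transduced cells, whose mean FPKM was 23.5 times that of NUP98-NSD1. A gene model of unconfirmed status, Gm42793 (chr5:104435121-104436372), lies inside Spp1 on the same strand and shares 11.6% of its stretches of 50 bases. It was listed at no more than 23.1 FPKM in any library.

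Arg1 (chr10:24915221-24927484, - strand) had the same order of groups. Its FPKM was 0, 0.102 and 0.241 in NRASG12D, 17.4, 12.3 and 1.58 in NUP98-NSD1 and 44.6, 145 and 173 in double-transduced libraries. The groups did not overlap, but NUP98-NSD1 replicate 3 lay 11-fold under replicate 1 of its group. NUP98-NSD1 exceeded NRASG12D cells by 2.95 on the log2 scale (SE 0.67, limma adjusted p = 0.00993), a call lost when genes with low values were kept in the test (adjusted p = 0.0751). The mean of the double-transduced libraries was 11.6 times that of NUP98-NSD1, a log2 difference of 3.61 that carries no test.

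The 3 apolipoprotein genes lie close together on chromosome 7, all on the - strand, with Apoc4 between Apoc2 and Apoc1. Apoe (chr7:19696109-19699188) was listed at 2.38, 2.09 and 1.49 FPKM in NRASG12D, 5.97, 6.57 and 4.12 in NUP98-NSD1 and 22.5, 60.6 and 7.96 in double-transduced libraries. Again no groups overlapped, while the double-transduced libraries themselves spanned 7.61-fold. Apoe rose in NUP98-NSD1 against NRASG12D cells by 1.13 on the log2 scale (SE 0.19, limma adjusted p = 0.00353), and in double-transduced against NRASG12D cells by 2.99 (SE 0.63, adjusted p = 0.0106). The first call was lost in a single fit of all 9 libraries (adjusted p = 0.159) and the second when genes with low values were kept (adjusted p = 0.0741). Between double-transduced and NUP98-NSD1 cells the difference of 1.86 did not pass (SE 0.64, adjusted p = 0.128). It passed without double-transduced replicate 3, the library with the lowest Apoe of the 3 (difference 2.56, adjusted p = 0.0425). Over 14 alternative fits the difference lay between 1.08 and 2.56, with limma adjusted p from 0.0425 to 0.472.

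Apoc2 (chr7:19671579-19677941) had the smallest spread of the 10 genes among the double-transduced libraries. It was listed at 0 in every NRASG12D library, at 8.03, 6.85 and 7.52 FPKM in NUP98-NSD1 and at 66.1, 98.9 and 102 in double-transduced libraries. The SD of log2 values was 0.102 in NUP98-NSD1 and 0.346 in double-transduced cells. Apoc2 was higher in NUP98-NSD1 than in NRASG12D cells by 3.08 (SE 0.12, limma adjusted p = 2.6e-05), and the mean of double-transduced cells was 11.9 times that of NUP98-NSD1, without a test. The difference against NRASG12D rests on 3 values of 0, which in these tables can be failed estimates, so they set no upper limit on Apoc2 there. The gene Gm44805 spans Apoc2 on the same strand and holds 78.3% of its stretches of 50 bases. It was listed at no more than 0.000131 FPKM, so how the counting divided reads between them is uncertain.

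Apoc1 (chr7:19689481-19692660) was near the limit of detection. Its value was 0 in the NRASG12D libraries, 0.346, 0.641 and 0.282 FPKM in NUP98-NSD1 and 3.76, 1.11 and 0.292 in double-transduced libraries, where 3 fragments correspond to 0.159 to 0.252 FPKM. The values of 0 can, as for Apoc2, be failed estimates. The double-transduced and NUP98-NSD1 libraries overlapped. Only 2 libraries reached 1 FPKM, so Apoc1 was the 1 of the 10 genes that missed the filter of at least 1 FPKM in at least 3 libraries and was not tested. Cd36 passed with the lowest values of the rest, reaching 1 FPKM in NUP98-NSD1 replicates 1 and 2 and in double-transduced replicate 2.

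Lpl (chr8:68880491-68907448, + strand) encodes the lipase that Apoc2 activates. The libraries held 0.104, 1.52 and 0.096 FPKM in NRASG12D, 24.5, 24.6 and 29.6 in NUP98-NSD1 and 30.5, 352 and 250 in double-transduced libraries. The groups did not overlap, but double-transduced replicate 1 lay just above the NUP98-NSD1 libraries. Lpl rose in NUP98-NSD1 cells by 4.23 (SE 0.32, limma adjusted p = 0.000262) and in double-transduced cells by 6.60 (SE 0.89, adjusted p = 0.00163), both on the log2 scale against NRASG12D. The difference of 2.38 between double-transduced and NUP98-NSD1 cells did not pass (SE 0.84, adjusted p = 0.137). Without double-transduced replicate 1 it was 3.46 and passed (adjusted p = 0.00407). The 14 alternative fits gave 1.71 to 3.46, with limma adjusted p from 0.00381 to 0.502.

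Cd36 (chr5:17781690-17888801, - strand) stayed low in most libraries, with values of 0, 0.049 and 0 FPKM in NRASG12D, 1, 1.94 and 0.565 in NUP98-NSD1 and 0.561, 11.6 and 0.52 in double-transduced libraries. Only double-transduced replicate 2 stood above the NUP98-NSD1 range, and the other 2 lay under it. Cd36 was higher in NUP98-NSD1 than in NRASG12D cells by 1.05 (SE 0.23, limma adjusted p = 0.00934). This call was lost under quantile normalization (0.55, adjusted p = 0.138), in a single fit of 9 libraries (adjusted p = 0.282) and when genes with low values were kept (adjusted p = 0.0588). In double-transduced against NRASG12D cells the difference of 1.61 did not pass (SE 0.78, adjusted p = 0.139). Without double-transduced replicate 2 it shrank to 0.60 and passed (adjusted p = 0.022). Against NUP98-NSD1 it was 0.56 (SE 0.81, adjusted p = 0.773) and turned to -0.44 without that library (adjusted p = 0.408).

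Trem2 (chr17:48346401-48354147, + strand) was close to 0 in NRASG12D cells, at 0.00858, 0.408 and 0.0275 FPKM. It reached 24.2, 20.8 and 17.2 FPKM in NUP98-NSD1 and 41.9, 242 and 82.6 in double-transduced libraries. No groups overlapped, and replicate 2 was the highest in both groups that received NRASG12D. Trem2 rose in NUP98-NSD1 cells by 4.25 (SE 0.18, limma adjusted p = 3.64e-05) and in double-transduced cells by 6.40 (SE 0.58, adjusted p = 0.000348) against NRASG12D, on the log2 scale. Between double-transduced and NUP98-NSD1 cells the difference was 2.15 (SE 0.58, adjusted p = 0.067). It passed without double-transduced replicate 1 (2.73, adjusted p = 0.0176). Across the 14 alternative fits it ranged from 1.48 to 2.73, with limma adjusted p from 0.00661 to 0.325.

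Gpnmb (chr6:49036546-49070929, + strand) was the second most abundant gene after Spp1 in the groups with the fusion, at 0.117, 2.63 and 0.282 FPKM in NRASG12D, 118, 84.1 and 93.1 in NUP98-NSD1 and 196, 2210 and 1481 in double-transduced libraries. No groups overlapped, and by FPKM it ranked 645, 16 and 39 among all genes of the double-transduced libraries. Gpnmb rose by 5.83 in NUP98-NSD1 cells (SE 0.42, limma adjusted p = 0.00023) and by 8.96 in double-transduced cells (SE 0.92, adjusted p = 0.000564) against NRASG12D, on the log2 scale. The difference of 3.13 between double-transduced and NUP98-NSD1 cells did not pass (SE 0.84, adjusted p = 0.067). It passed at 4.20 without double-transduced replicate 1 (adjusted p = 0.00419). Alternative fits, 14 in number, gave 2.46 to 4.20, with limma adjusted p from 0.0028 to 0.328.

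Adgre1 (chr17:57358691-57483527, + strand) was the only one of the genes expressed well above 10 FPKM in all 9 libraries. Its FPKM was 18.3, 15.7 and 18.8 in NRASG12D, 62.2, 55.2 and 58.8 in NUP98-NSD1 and 46.2, 296 and 114 in double-transduced libraries. Double-transduced replicate 1 lay under all 3 NUP98-NSD1 libraries, so those groups overlapped. Adgre1 rose by 1.68 in NUP98-NSD1 cells (SE 0.10, limma adjusted p = 0.000105) and by 2.66 in double-transduced cells (SE 0.60, adjusted p = 0.0133) against NRASG12D. The second call was lost when genes with low values were kept (adjusted p = 0.0856). Against NUP98-NSD1 the double-transduced cells differed by 0.97 (SE 0.60, adjusted p = 0.397). This difference passed at 1.63 without double-transduced replicate 1 (adjusted p = 0.042). It lay between 0.30 and 1.63 over 14 alternative fits, with limma adjusted p from 0.042 to 0.673.

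**Figure D2:**
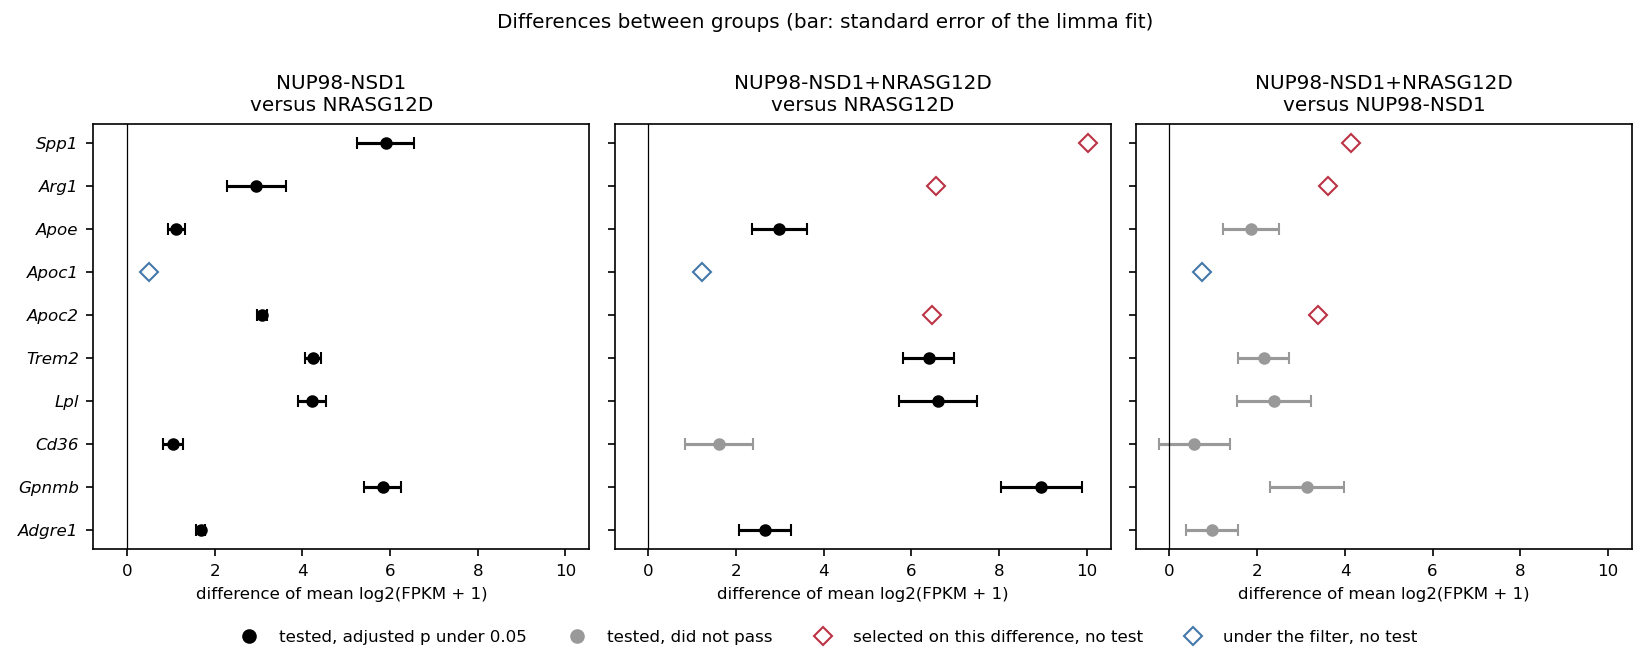
Difference of mean log2(FPKM + 1) for each gene in the 3 comparisons. Circles are tested genes with the standard error of the limma fit, black where the adjusted p was under 0.05, and open diamonds were not tested. Gpnmb reached 5.83 and 8.96 against NRASG12D, and no black circle appears between the double-transduced and NUP98-NSD1 groups.

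Across the 3 comparisons, the genes were higher with the fusion than with NRASG12D alone. In NUP98-NSD1 against NRASG12D cells, 9 of 10 genes were tested and all 9 were called higher, where 42.2% of the 13493 tested genes were called higher. The groups did not overlap for any of the 10, against 50.7% of tested genes that were higher without overlap. Among these 10, Apoc2 and the untested Apoc1 rest on listed values of 0 in NRASG12D that can be failed estimates. In double-transduced against NRASG12D cells, 5 of 6 tested genes that had not been selected on this difference were called higher, against 24.2% of all tested genes. The groups did not overlap for any of these 6, against 38.7% of tested genes that were higher without overlap. The 3 genes selected on this difference and the untested Apoc1 did not overlap either. Between double-transduced and NUP98-NSD1 cells, 0 of the same 6 genes passed with limma, against 2.3% of all tested genes called higher, and 4 were higher at an unadjusted p under 0.05, against 9.4% of all tested genes. For 7 of the 10, including the 3 selected ones, those groups did not overlap, against 11.6% of tested genes. Genes enter the test through the groups in which they are high, and the comparisons share libraries with those used to choose the genes, so these counts describe the group and do not support a pattern. A two-sided exact permutation test of 3 against 3 libraries cannot go below p = 0.1, the value reached by each of the 9 tested genes in the first comparison. The macrophage and neutrophil marker sums and Pf4 moved with these differences. Single neutrophil markers did not all do so, with Mpo at 2311, 2554 and 463 FPKM in NUP98-NSD1 and 5140, 1463 and 131 in double-transduced libraries. Itga2b of the megakaryocyte list and the mean mast cell marker sum moved the other way. That sum was 31277 FPKM in NRASG12D, 28591 in NUP98-NSD1 and 2014 in double-transduced cells. The part of these markers in the differences was not tested. In bulk RNA, fewer cells of a type and less RNA per cell cannot be told apart.

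Log2 differences also depend on the scaling between libraries. The median over all tested genes was 0.272 for NUP98-NSD1 and 0.229 for double-transduced against NRASG12D cells, and -0.0591 between the groups with the fusion. Median-ratio scaling brought these to 0.00642, 0.053 and 0.0353, and quantile normalization to -0.0678, -0.0474 and -0.00574. The split of calls moved with it, from 5689 higher and 1347 lower genes to 3196 and 2973 under median-ratio scaling and 2619 and 3447 under quantile normalization in NUP98-NSD1 against NRASG12D. In double-transduced against NRASG12D cells, the split moved from 3266 and 1907 to 2755 and 2471, and to 2155 and 3064. The 8 genes of the group tested under both scalings kept their direction in all 3 comparisons, as did Cd36 under quantile normalization, the only one of the 2 under which it was tested.

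The double-transduced libraries did not rank the genes alike. Spp1, Arg1 and Apoc2 were highest in replicate 3, whereas Apoe, Trem2, Lpl, Cd36, Gpnmb and Adgre1 were highest in replicate 2 and Apoc1 in replicate 1. Measured against the NUP98-NSD1 mean on the log2 scale, replicate 1 lay 2.40, 2.41 and 2.99 higher in Spp1, Arg1 and Apoc2, but 0.99 in Trem2, 0.21 in Lpl, 1.00 in Gpnmb and -0.34 in Adgre1. Replicate 2 exceeded that mean by 2.31 to 4.58 in 9 of the 10 genes, all except Apoc1 at 0.58. In replicate 3, Spp1 and Arg1 lay 5.42 and 4.34 higher, while Apoe lay 0.47 and Cd36 -0.46 from the NUP98-NSD1 mean. Of the 12 macrophage markers, 9 were highest in replicate 2 and 3 in replicate 3. Of the 10 neutrophil markers, 2, 3 and 5 were highest in replicates 1, 2 and 3. The mean of the macrophage markers lay 0.74, 3.14 and 1.80 above NUP98-NSD1 in replicates 1 to 3, the mean of the neutrophil markers 1.52, 2.44 and 3.18, and the mean of the mast cell markers lay at -4.19, -2.29 and -5.03. Within the NRASG12D group, replicate 2 was highest for Spp1, Trem2, Lpl, Cd36 and Gpnmb, and Arg1 and Adgre1 were highest in replicate 3.

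**Figure D3:**
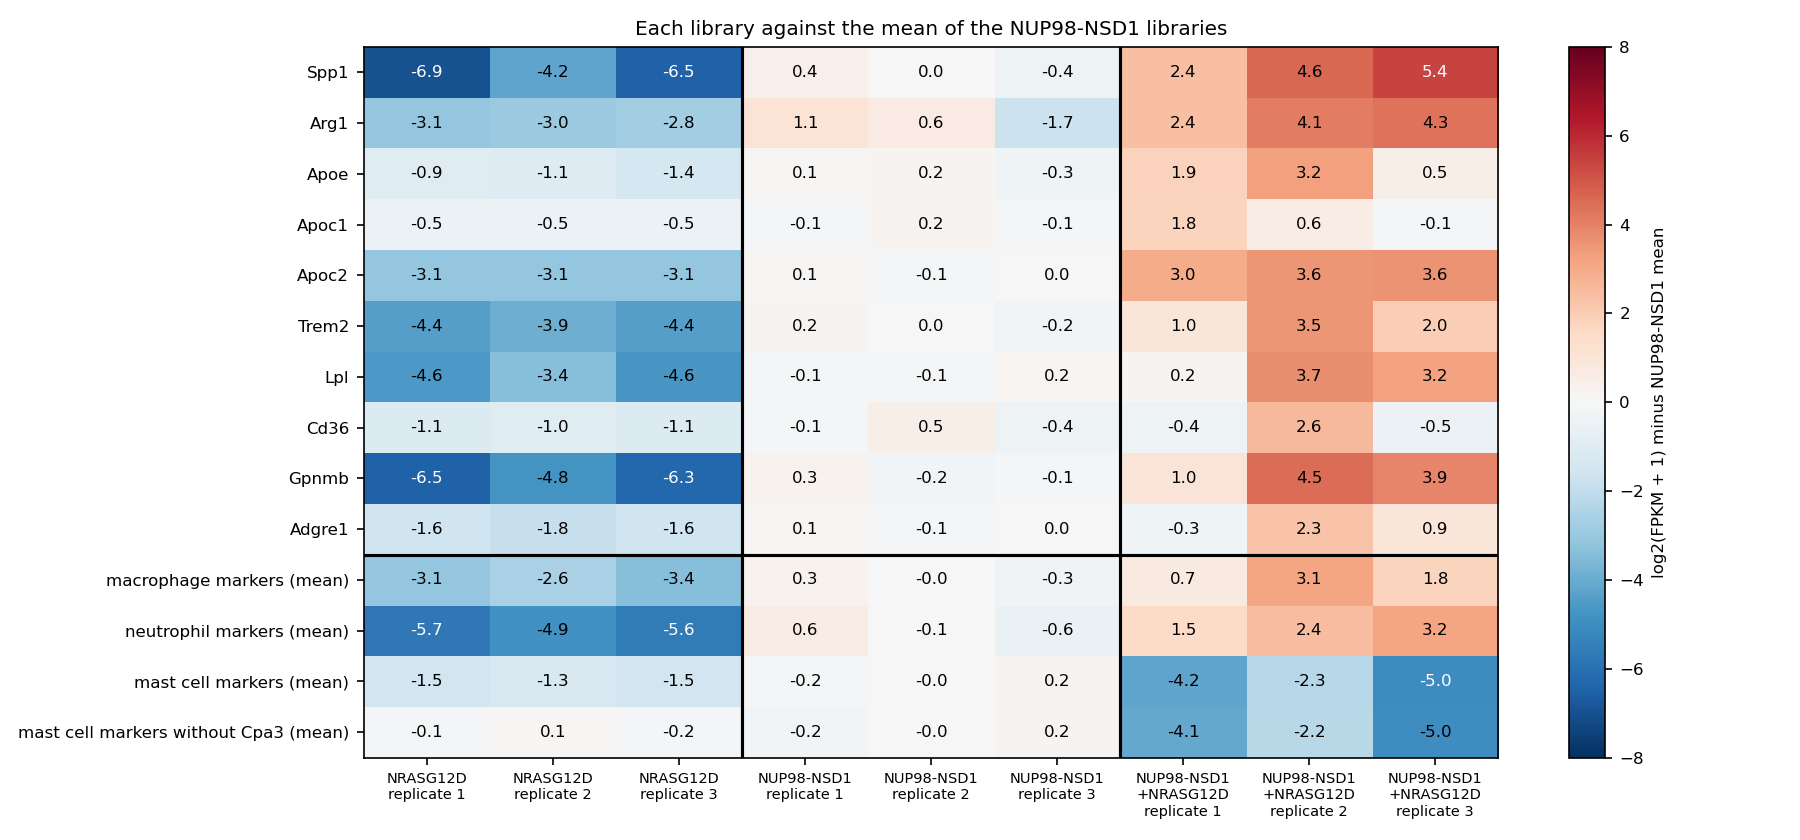
Each library's log2(FPKM + 1) minus the mean of the 3 NUP98-NSD1 libraries, for the 10 genes above the line and for the means of the macrophage, neutrophil and mast cell marker lists under it, the last also without Cpa3, which was listed at 0 in NRASG12D. The NRASG12D libraries lay at -1.53 to -1.28 for all mast cell markers and at -0.18 to 0.10 without Cpa3. Colours run from blue (lower) to red (higher). Lpl was 0.21 above that mean in double-transduced replicate 1, but 3.70 and 3.21 in replicates 2 and 3, while Apoc2 lay between 2.99 and 3.61 in all of them.

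The counts of the related lists that follow stand beside the shares of all tested genes, of which 42.2% were called higher and 9.98% lower in NUP98-NSD1 against NRASG12D, 24.2% and 14.1% in double-transduced against NRASG12D, and 2.3% and 6.31% between the groups with the fusion. Some listed genes stayed under 1 FPKM in every NRASG12D library and entered the test only through the groups with the fusion. They include Mgll, Lrp1, Dgat2, Fabp4, Msr1, Itgb5, Arg2, Chil3, Mrc1, Ctsl, Ctsk and Nectin2. Their calls against NRASG12D, also within the counts, are a description. Genes of lipid uptake and breakdown moved with the group in part. Of 13 listed, 9 were tested, and 7 were higher in NUP98-NSD1 and 6 in double-transduced cells against NRASG12D, with none lower and median log2 differences of 0.94 and 1.78. Between double-transduced and NUP98-NSD1 cells 2 were higher, Mgll, which releases fatty acids from monoglycerides (2.43, SE 0.57, adjusted p = 0.0483), and Lrp1, a receptor of Apoe-bearing particles (2.11, SE 0.41, adjusted p = 0.0284). The median of the 9 there was 0.69. Lrp1 was listed at 2.51, 2.38 and 2.62 FPKM in NUP98-NSD1 and 6.62, 23.6 and 17.5 in double-transduced libraries. Lipa, the lysosomal acid lipase, rose by 2.04 in double-transduced against NRASG12D cells (SE 0.43, adjusted p = 0.0109).

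The 12 genes of fatty acid binding and storage had 11 tested, of which 9 were higher in NUP98-NSD1 and 10 in double-transduced against NRASG12D cells (medians 0.77 and 2.32). Fabp5, a fatty acid binding protein, was listed at 1.04, 1.74 and 1.45 FPKM in NRASG12D, 72.5, 65.1 and 37.7 in NUP98-NSD1 and 105, 302 and 163 in double-transduced libraries. It rose by 4.58 (SE 0.25, adjusted p = 7.94e-05) and 6.18 (SE 0.37, adjusted p = 9.06e-05) against NRASG12D. Dgat2, which makes triglyceride, rose by 3.86 and 5.38, and Fabp4 by 2.28 and 3.42. Between the groups with the fusion 1 of 11 passed, Acsl1, an acyl-CoA synthetase (1.29, SE 0.26, adjusted p = 0.0312), named after its values were seen. The median there was 1.29. Of 12 genes of cholesterol sensing and efflux, 7 were tested, 3 were higher in each comparison with NRASG12D and 0 between the groups with the fusion by limma, where 3 had an unadjusted p under 0.05. The share called higher in NUP98-NSD1 against NRASG12D cells was near the 42.2% of all tested genes. Abcg1, a cholesterol exporter, rose by 1.04 in NUP98-NSD1 cells (SE 0.20, adjusted p = 0.00579) and 2.49 in double-transduced cells (SE 0.43, adjusted p = 0.00443). Nceh1, a cholesterol ester hydrolase, fell by 0.44 in NUP98-NSD1 cells (SE 0.08, adjusted p = 0.0046). Of 8 scavenger receptors, relatives of Cd36 in function, 6 were tested and 5 and 4 were higher against NRASG12D, with 0 called by limma and 3 at an unadjusted p under 0.05 between the groups with the fusion. The leader was Msr1, listed at 0.0228, 0.212 and 0.0177 FPKM in NRASG12D, 8.59, 9.19 and 10.4 in NUP98-NSD1 and 19.1, 151 and 79.8 in double-transduced libraries.

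Partners of Trem2 moved in both directions. Tyrobp, the adaptor through which Trem2 signals, was listed at 668, 451 and 672 FPKM in NRASG12D, 496, 442 and 388 in NUP98-NSD1 and 629, 835 and 1019 in double-transduced libraries. Its differences of -0.42, 0.47 and 0.88 passed in no comparison (adjusted p = 0.0833, 0.199 and 0.0733). Of the 9 genes of Trem2 signalling, 4 were higher and 3 lower in each comparison with NRASG12D. In NUP98-NSD1 cells the share called higher was near that of all tested genes (42.2%). Spi1, which encodes PU.1, rose by 0.94 and 1.74 (adjusted p = 0.00745 and 0.000248). Inpp5d, an inositol phosphatase that restrains the pathway, fell by 0.91 and 1.87 (adjusted p = 0.00222 and 0.000901). Pik3cd, a phosphoinositide kinase subunit, fell in all 3 comparisons, by 0.49, 1.65 and 1.16. Of 5 other TREM family genes, 3 were tested. Trem1, a receptor of neutrophils and monocytes, was 2.03 higher in double-transduced than in NUP98-NSD1 cells (SE 0.30, adjusted p = 0.0122). Trem3 gave 1.91 there (SE 0.58, adjusted p = 0.0931), and Treml2 gave 0.29. Treml1 and Treml4 were under the filter.

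Among 8 receptors of osteopontin, the product of Spp1, 7 were tested and 3 were higher in both comparisons with NRASG12D, namely Itgb5, Itga4 and Cd44, in the first of them a share near that of all tested genes (42.2%). Cd44 was also higher in double-transduced than in NUP98-NSD1 cells by 0.96 (SE 0.21, adjusted p = 0.0397), with 32.2, 26.8 and 25.1 FPKM in NUP98-NSD1 and 41.8, 65.1 and 61.3 in double-transduced libraries. Itgav and Itgb3, the classical osteopontin integrin pair, passed in no comparison, with differences of -0.10 to 0.20. Of 12 genes around Arg1 in arginine and polyamine metabolism, 8 and 6 were higher against NRASG12D and none lower. Ass1, which rebuilds arginine, rose by 3.83 and 4.34 (adjusted p = 0.000599 and 0.000407), and Arg2, the mitochondrial arginase, by 2.10 and 3.07. Arg2 was listed at 0.0311, 5.27e-220 and 5.48e-188 FPKM in NRASG12D libraries. Values so near 0 can, like an exact 0, be failed estimates. Between the groups with the fusion 1 of 12 passed, Nos2, which competes with arginase for arginine, at 1.15 (SE 0.14, adjusted p = 0.00885), named after its values were seen. Nos2 was listed at only 1.42, 1.53 and 1.29 FPKM in double-transduced libraries. No other library reached 1 FPKM of it, so it entered the test only through its higher group and its call is a description.

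The lists of macrophage states held genes in both directions. Of 13 genes of alternative activation, 12 were tested, with 7 higher and 1 lower in NUP98-NSD1 and 5 higher and 2 lower in double-transduced cells against NRASG12D, and 1 higher and 2 lower between the groups with the fusion. Chil3, a chitinase-like protein of myeloid cells, rose by 7.75 and 8.55 against NRASG12D, and Mrc1, the mannose receptor, by 3.36 and 4.53. Clec10a, a lectin of macrophages and dendritic cells, fell by 2.50 in double-transduced against NUP98-NSD1 cells (SE 0.50, adjusted p = 0.0297), and the chemokine gene Ccl17 fell by 1.46 (SE 0.24, adjusted p = 0.0173). Fn1, fibronectin, rose there by 1.23 (adjusted p = 0.0296) and is named after its values were seen. Fn1 reached 1 FPKM only in double-transduced and Ccl17 only in NUP98-NSD1 libraries, so each entered the test through its higher group. Of 15 further genes of lipid-associated macrophages, 14 were tested, with 7 higher and 3 lower, 8 higher and 3 lower, and 1 higher and 2 lower in the same order. In the first comparison the share called higher was near that of all tested genes (42.2%). The elastase gene Mmp12 rose by 4.28 and 7.07 against NRASG12D, the cathepsin gene Ctsl by 5.29 and 7.76, and the chemokine gene Ccl6 by 6.14 and 8.76. Lgals3, galectin-3, named after its values were seen, was 2.55 higher in double-transduced than in NUP98-NSD1 cells (SE 0.56, adjusted p = 0.0386). Cd63, a granule membrane protein of mast cells, and Cst7, a cystatin, fell there by 1.65 and 1.18 (adjusted p = 0.0386 and 0.0296). Among 10 osteoclast genes 5 were tested, and Ctsk and Mmp9 rose in double-transduced against NRASG12D cells by 2.82 and 2.41. These calls passed in 3 and 2 of 6 fits without a library, with adjusted p up to 0.0582 for Ctsk without NRASG12D replicate 3 and 0.0579 for Mmp9 without double-transduced replicate 3. Each was also lost without any 1 of the NRASG12D libraries. Mmp9 reached 1 FPKM only in double-transduced libraries, so it too entered the test through its higher group. Nfatc1, the master factor of osteoclasts, fell by 0.73 between double-transduced and NUP98-NSD1 cells (adjusted p = 0.0401). Of the relatives of Adgre1 and Gpnmb, Adgre5 fell by 0.73 and 2.26 against NRASG12D, and Adgre4 and Pmel were under the filter.

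The calls of these lists between double-transduced and NUP98-NSD1 cells were sensitive to single libraries. Nos2, Fn1 and Ccl17 had entered the test only through their higher group, so their calls are a description. Mgll, Lrp1, Acsl1, Cd44, Fn1, Lgals3, Cd63 and Cst7 each passed in 1 of 6 fits without a library, Clec10a and Nfatc1 in 2, Ccl17 and Pik3cd in 3, Trem1 in 4 and Nos2 in 6. The highest adjusted p in those fits was 0.171 for Mgll and 0.104 for Lrp1, both without NUP98-NSD1 replicate 3, and 0.0463 for Nos2 without NUP98-NSD1 replicate 2. Under median-ratio scaling Mgll (adjusted p = 0.0638), Cd44 (0.056), Lgals3 (0.0557), Cd63 (0.0764) and Nfatc1 (0.0913) no longer passed there, although their differences of 2.49, 1.06, 2.66, -1.54 and -0.62 stayed close to those above. In NUP98-NSD1 against NRASG12D cells, the 7 higher genes of lipid uptake and breakdown became 4 under median-ratio scaling and 3 under quantile normalization, and the 9 of fatty acid binding and storage became 6 and 5. The 3 higher and 1 lower genes of cholesterol sensing and efflux became 1 and 4 under both. The 8 higher genes around arginine became 6 and 5, and the 4 higher and 3 lower genes of Trem2 signalling became 2 and 4 under both.

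**Figure D4:**
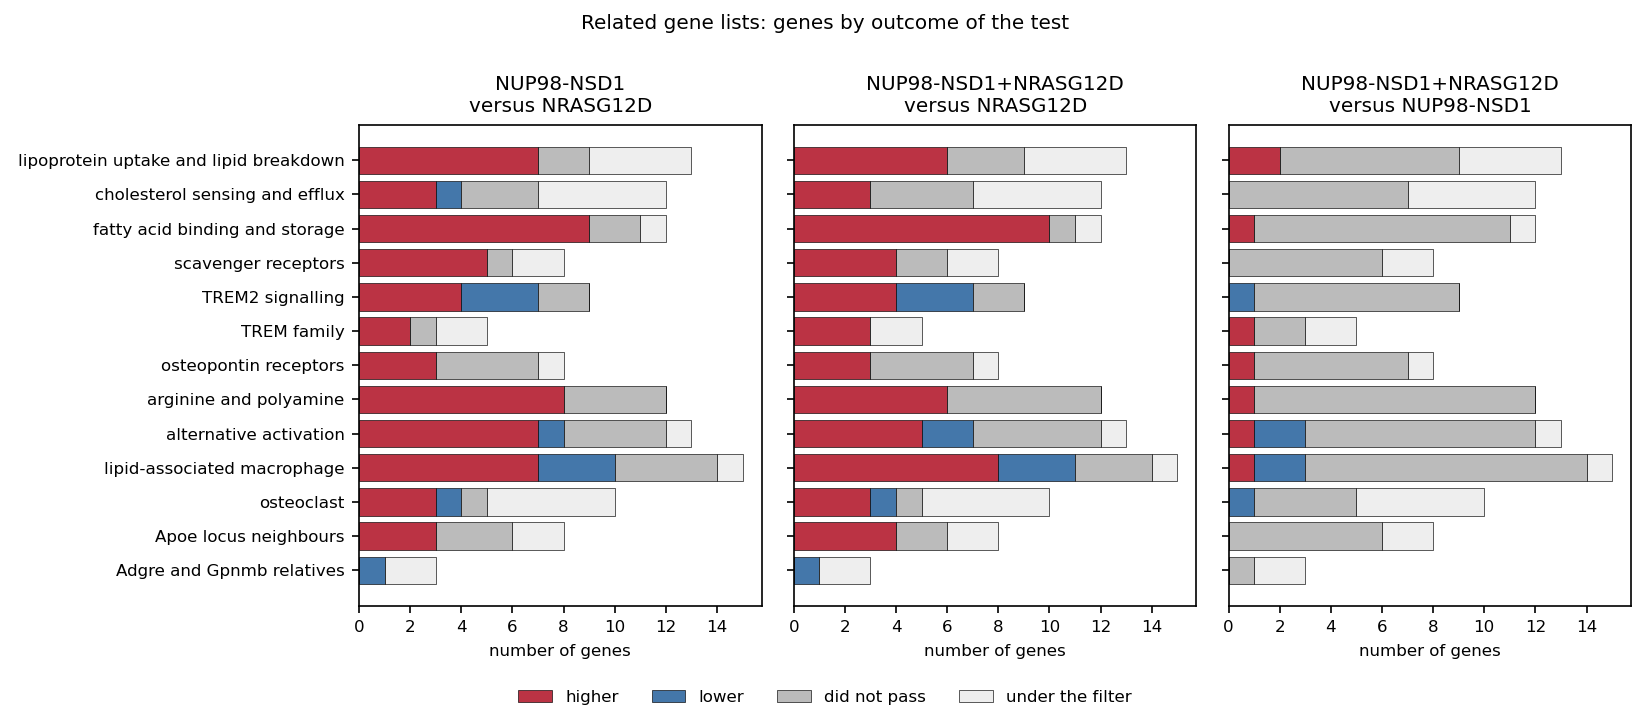
Number of genes in each related list that were called higher (red), called lower (blue), did not pass (grey) or were under the filter (pale) in the 3 comparisons. Fatty acid binding and storage had 9 and 10 of 11 tested genes called higher against NRASG12D, and at most 3 genes of any list were called between the groups with the fusion.

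The neighbours of the apolipoprotein genes were higher in NUP98-NSD1 against NRASG12D cells in a share near that of all tested genes. Over 8 neighbours, 6 were tested, and 3 were higher there, against 42.2% of all tested genes, and 4 in double-transduced against NRASG12D cells, against 24.2%. With limma, 0 passed between double-transduced and NUP98-NSD1 cells and 1 had an unadjusted p under 0.05, with differences of -0.14 to 0.64. Apoc2 and Apoe differed there by 3.39 and 1.86. Apoc4, whose start lies between those of Apoc2 and Apoc1, was listed at no more than 0.262 FPKM in any library. Nectin2, an adhesion molecule whose start lies 51.3 kb from that of Apoe, rose by 2.61 and 3.13 against NRASG12D (adjusted p = 0.000183 and 0.000409). The mitochondrial import gene Tomm40, which lies between Apoe and Nectin2 with its start 16.2 kb from that of Apoe, rose by 1.07 and 1.24.

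**Figure D5:**
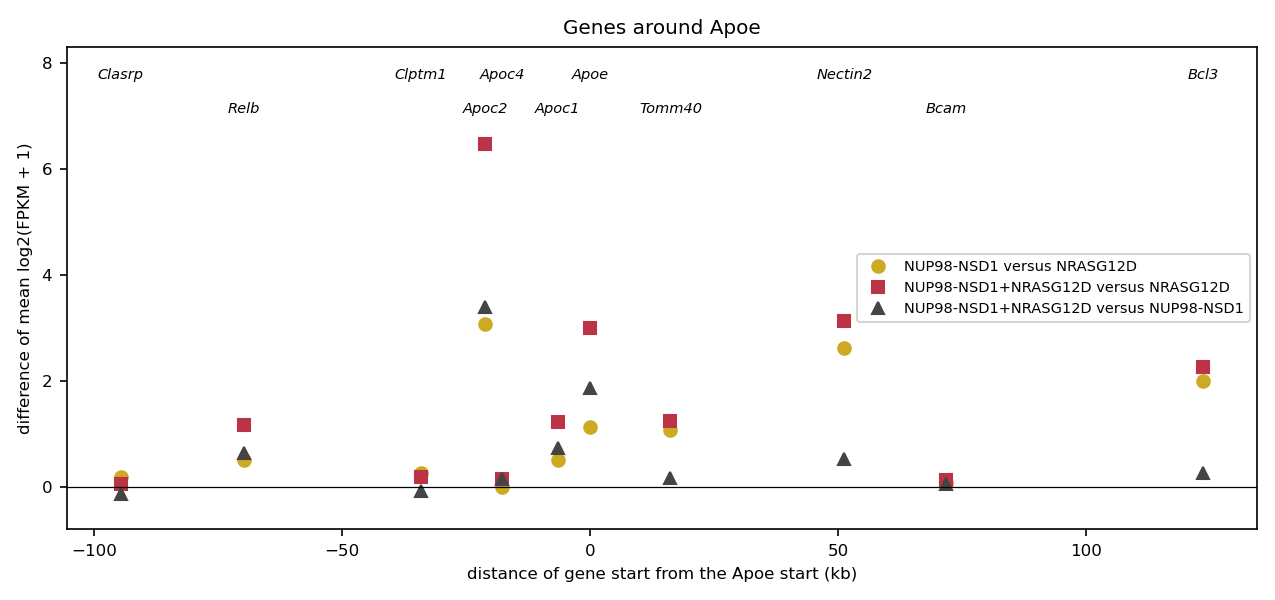
Difference of mean log2(FPKM + 1) in the 3 comparisons for the 11 genes around Apoe, by the distance of their starts from the Apoe start in kb. Apoc2 reached 6.47 in double-transduced against NRASG12D cells, while Apoc4, with its start at -17.7 kb, stayed at 0.14.

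Profiles over the 9 libraries were compared by the mean absolute difference of log2 values centred on each gene's mean. For Spp1 the nearest tested genes were Gpnmb (0.551), S100a9 (0.592) and Ccl6 (0.638). For Gpnmb they were Ctsl (0.519), Spp1 (0.551) and Ccl6 (0.563). Spp1 and Gpnmb were the only genes of the group to appear among each other's 3 nearest genes. Arg1 lay nearest to Cd81 (0.487), Cd14 (0.511) and Anxa2 (0.533), and Apoc2 to Hpse (0.331), Slfn1 (0.399) and Anxa2 (0.438). Trem2 lay nearest to Mpeg1 (0.27), Fabp5 (0.275) and Cybb (0.29), and Lpl to Dab2 (0.199), Clec4n (0.426) and Mpeg1 (0.429). Apoe was nearest to Tmem37 (0.326), Tlr8 (0.327) and Plxnb2 (0.354). Cd36 was nearest to Rgl1 (0.245), Flrt3 (0.259) and the efferocytosis receptor gene Mertk (0.276), and Adgre1 to Rasgef1b (0.17), Fabp3 (0.235) and 9930111J21Rik1 (0.263). Dab2 had 34.1, 442 and 192 FPKM in the double-transduced libraries, in the same order as Lpl.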

How the data were processed

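RNA of 9 libraries was sequenced by the authors as paired-end reads of 50 bp. Per the labels, reads were aligned to GRCm38.p6, with STAR 2.7.2a and Cufflinks 2.2.1 named in the submitters' processing notes and GENCODE M22 in the methods. Strand-specific counting and the handling of reads with several alignments are not given in the sources used here. The authors deposited FPKM per gene as Cufflinks estimated them. No further scaling between libraries is stated. Fragment counts, the input that the methods name for DESeq2, were not used here.

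Groups were taken from the labels. Each table held 55330 lines, with repeated identifiers added together. Of 55274 identifiers, 54882 were found in GENCODE M21, 54867 with equal coordinates, which are given on GRCm38 counted from 1. Depth (22400000 to 35400000 fragments per library) was estimated from the step between low FPKM values in 3386 genes with a single transcript, where 82.4% to 86.3% of low values lay within 0.1 of a whole number of fragments. Levels of 3 fragments were taken as the floor, which covers counting error only. The scale of comparison was log2(FPKM + 1), which understates changes of low genes. A gene was tested (13493 in all) if 3 or more libraries held 1 FPKM or more of it, and the 6 libraries of each pair of groups were fitted in limma 3.58.1 (R 4.3.3, lmFit, then eBayes with trended variance) with no block. Benjamini-Hochberg adjustment ran over every tested gene, and the threshold was 0.05. The adjusted p-values in the text come from this test unless another setting is named. The procedure was tested on simulated data. Tables were handled with Python 3.11.15 and pandas 2.3.3.

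The genes, the related lists and the marker lists were chosen with earlier results of these data known. Genes named are the 10, up to 3 largest rises and 3 largest falls per related list among genes that passed without overlap of the groups, up to 2 per list that did not pass, whole lists of up to 6 genes, the 3 nearest profiles, marker genes and Nras. Other pseudocounts, filters, scalings and models were tried, and each library was left out in turn.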

Additional observations from a re-analysis of the deposited data

How the results depend on the processing

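In NUP98-NSD1 against NRASG12D cells, the count of 9 genes called higher stayed between 7 and 9 under every alternative tried, and it was 9 whichever single library was left out. In double-transduced against NRASG12D cells, the count of 5 fell to 3 when genes with low values were kept and lay between 5 and 6 without single libraries. Between double-transduced and NUP98-NSD1 cells, the count of 0 rose to 2 in a single fit of all 9 libraries and to 4 with array weights, and it lay between 0 and 4 without single libraries, with 4 reached without double-transduced replicate 1 and 1 without replicate 3. Cd36 turned there from 0.56 to -0.04 with array weights and lay between -0.44 and 1.08 without single libraries, the lowest without double-transduced replicate 2. The cause of these changes was not tested, except that a fit without a filter adjusts over more genes. The 3 libraries with the same number in the labels are not described as pairs, and after removal of group means their correlations lay between -0.177 and 0.16. The replicate block, a fit that treats equal numbers as pairs, gave 9, 5 and 0 called genes. Of 375 alternative fold changes of the 10 genes, 351 kept their side of the threshold or stayed within the replicate spread, 7 lost and 13 gained a call, 2 moved further and 2 reversed. Of 1848 alternative counts over related and marker lists, 263 moved by more than 1.5 times. Leaving out Cpa3, an alternative chosen after seeing the data, lowered the mean mast cell marker sum from 28591 to 15139 FPKM in NUP98-NSD1. The nearest profiles held least under a pseudocount of 0.1, where Arg1, Apoe and Adgre1 had 0 of their 3 nearest genes in common with those given above. Apoc1 could not be fitted except without a filter, and Cd36 was not tested at a filter of 5 FPKM or under median-ratio scaling. With 3 libraries per group, depth limits only the lowest values, those of Apoc1, Cd36 and the NRASG12D libraries.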
